A study of Mus musculus with 47 samples.

Results

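The clustered histone genes are the genes of the Hist1, Hist2, Hist3 and Hist4 gene clusters of the mouse, which encode the linker histone H1 and the core histones H2A, H2B, H3 and H4. They were chosen by symbol alone: every gene whose symbol began with Hist1h, Hist2h, Hist3h or Hist4h, except Hist2h2be and the symbols ending in -ps. Of the 54532 genes in the expression tables, 70 matched and 68 remained after Hist2h2be and Hist3h2bb-ps were left out. These 68 comprised 6 H1, 20 H2A, 17 H2B, 12 H3 and 13 H4 genes. By cluster, 56 were Hist1 genes on chromosome 13, 9 were Hist2 genes on chromosome 3, 2 were Hist3 genes on chromosome 11 and 1, Hist4h4, was on chromosome 6. Hist1h2aj and Hist1h2al are annotated as pseudogenes.

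The RNA came from the olfactory epithelium, the nasal tissue that carries the odor-sensing neurons, of newborn to juvenile mice of 7 ages from birth (P0) through P3, P5, P7, P10 and P14 to P21. The wild type (WT) is labelled C57BL/6J, and the second genotype OIVT;Kir2.1 (Kir), which names the inward-rectifier potassium channel Kir2.1. The sources used here do not give what drives the channel, or in which cells. Both genotypes had 4 libraries at P0 and at P7, Kir had 4 at P10, and every other group had 3, for 23 WT and 24 Kir libraries. Nothing in the labels ties a library to an animal of its own, so p-values measure the spread between libraries, part of which may be technical.

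Most clustered histone genes are transcribed in S phase, when new DNA has to be wrapped into nucleosomes. Their mRNAs are the one large class of animal mRNA that ends without a poly(A) tail: the RNA is cut just after a short stem-loop that is bound by the stem-loop binding protein, Slbp, and it is degraded when replication stops. Some clustered genes also make longer, polyadenylated mRNAs, chiefly in cells that have left the cell cycle. The libraries were made from polyadenylated RNA, per the labels' protocols, so that an mRNA that ends at its stem-loop is not selected for and the values below do not measure the whole of each gene's RNA.

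The stem-loop is shown here because it marks the end at which the poly(A)-free form is cut. The search used a fixed pattern of 16 bases with a choice of letters at some positions, so other forms would be missed. A match was found in the annotated transcripts (GENCODE M21, mouse build GRCm38) of 44 of the 68 genes, in 6 forms of 16 bases each. In the lines below, written 5′ to 3′ in DNA letters, capitals mark the stem and lower case the loop:
Form of 26 genes, among them Hist1h1c, Hist1h1e, Hist1h2ac, Hist1h2be, Hist2h3c2, Hist3h2a and Hist3h2ba: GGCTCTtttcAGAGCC
Form of 7 H4 genes, among them Hist1h4h and Hist4h4: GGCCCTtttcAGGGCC
Form of 6 Hist1 genes, among them Hist1h1t and Hist1h2bk: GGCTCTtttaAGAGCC
Form of Hist1h4i and Hist2h4: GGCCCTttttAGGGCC
Form of Hist1h4b and Hist1h4j: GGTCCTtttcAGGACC
Form of Hist2h2ac: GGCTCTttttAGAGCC
The 3 forms whose stem begins GGCCCT or GGTCCT were all of H4 genes, and every other stem-loop began with GGCTCT. No match was found in the other 24 genes, of which 11 were annotated with coding sequence alone, which leaves no room for a stem-loop.

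Promoters of the clustered genes are also alike in sequence. RefSeq promoter windows (GRCm38.p6, 250 bases before to 50 after the start) were found for 61 of the 68 genes. The sequence CCAAT, the box bound by the factor NF-Y, occurred on either strand in 52 of the 61 windows (85.2%), against 37.4% of all 32851 RefSeq windows of the same length. It was present in every H1, H2A, H2B and H3 window and in 3 of 12 H4 windows. TATAAA, searched on either strand, occurred in 34 windows (55.7%, against 13.6% of all windows). ATTTGCAT, the octamer bound by Oct1, occurred on either strand in 13 windows (21.3%, against 1.74%), 7 of H2A and 6 of H2B genes. None of the 3 motifs contains another, although the ends of CCAAT and ATTTGCAT can share letters. The promoters below are of 3 genes whose RNA changed with age (see the values further on): Hist1h1c fell, and Hist1h2ac and Hist2h2ac, which each share their promoter with an H2B gene on the other strand, rose. Each line holds the 250 bases before the start, 5′ to 3′ on the gene's strand, with the 3 motifs in capitals on whichever strand they lie:
Hist1h1c, chr13:23738557-23738806, plus strand: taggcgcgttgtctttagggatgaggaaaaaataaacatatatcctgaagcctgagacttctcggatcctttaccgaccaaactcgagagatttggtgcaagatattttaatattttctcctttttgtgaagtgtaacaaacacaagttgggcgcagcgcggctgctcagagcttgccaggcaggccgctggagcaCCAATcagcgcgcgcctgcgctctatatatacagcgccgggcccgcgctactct
Hist1h2ac, chr13:23683960-23684209, minus strand: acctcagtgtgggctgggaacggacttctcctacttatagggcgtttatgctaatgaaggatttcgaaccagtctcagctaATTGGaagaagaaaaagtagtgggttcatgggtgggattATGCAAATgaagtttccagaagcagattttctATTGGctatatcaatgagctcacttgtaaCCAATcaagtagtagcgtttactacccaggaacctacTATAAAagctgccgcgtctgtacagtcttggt
Hist2h2ac, chr3:96220881-96221130, minus strand: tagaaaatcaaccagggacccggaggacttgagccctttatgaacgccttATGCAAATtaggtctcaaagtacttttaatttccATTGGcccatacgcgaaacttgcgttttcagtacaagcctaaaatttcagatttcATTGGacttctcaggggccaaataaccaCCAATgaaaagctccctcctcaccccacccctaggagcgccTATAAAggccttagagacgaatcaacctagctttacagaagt
The 2 H2A promoters hold all 3 motifs, and the Hist1h1c stretch holds CCAAT and neither of the others. Hist2h3c2, the gene with the highest rise, is not printed. Its 250 bases before the start hold none of the 3 motifs, although its full window holds CCAAT. These are matches of letters, not measured binding.

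The libraries held between 8107547 and 30385151 uniquely mapped reads counted in genes, of which between 1331 and 6188 fell in the 68 genes. Library names began with cry3, cry4 or cry6, a prefix whose meaning the sources used here do not give. All P0, P3, P14 and P21 libraries were cry4, all P5 and P10 libraries were cry6, and P7 held all 3 in both genotypes. For WT P0 replicate 3 the title says P0 but the stage label says P3, and it was kept at P0. Kcnj2, the gene for Kir2.1, stood at 36.8 to 104 CPM (reads of the gene scaled to library size) in the WT libraries and at 439 to 1648 CPM in 19 Kir libraries, but at 132 to 238 CPM in the other 5 (replicates 1 and 2 of P21, 1 and 4 of P7, and 3 of P3). Every result on Kir was therefore also computed without these 5. In Kir P10 replicate 2, 33.5% of reads were unmapped, the one library over 20%. Omp, which marks mature olfactory sensory neurons, was read in every library (164 to 2604 CPM).

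Few of the 68 genes carried most of the signal. Levels between genes are compared in deposited TPM, a share of all transcripts that allows for their length. The highest means over the 47 libraries were those of Hist2h2aa2 (260 ± 102 TPM, SD, n = 47), an H2A gene, Hist3h2ba (140 ± 38.4 TPM), an H2B gene, Hist1h2bc (67.0 ± 12.4 TPM), also H2B, and Hist1h1c (66.2 ± 25.4 TPM), a linker histone gene. They were followed by Hist2h2aa1 (36.1 TPM), Hist3h2a (34.5 TPM), Hist2h3c2 (31.3 TPM), Hist1h2br (20.8 TPM), Hist1h2bq (20.7 TPM) and Hist2h4 (13.8 TPM). These 10 genes held 84.2% of the summed TPM of all 68, and 13 genes had a mean of 10 TPM or more. The median of the 68 means was 1.43 TPM. The remaining Hist2 and Hist4 genes were low: Hist2h2ac had a mean of 5.57 TPM, Hist2h3b 2.32, Hist2h2ab 1.58, Hist4h4 0.902, Hist2h2bb 0.863 and Hist2h3c1 0.115 TPM.

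**Figure D1:**
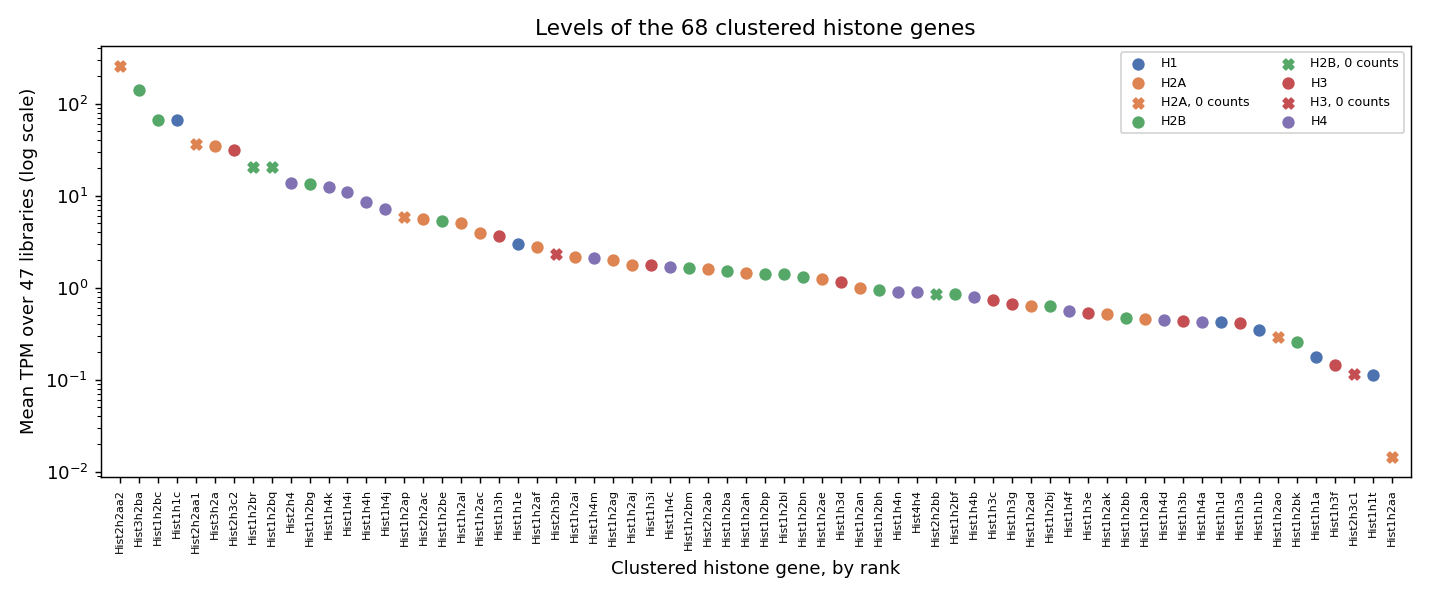
Mean TPM over 47 libraries (log scale) of each clustered histone gene, ordered by rank and coloured by histone, with crosses for genes at 0 uniquely mapped reads in every library. The 10 highest genes reach from 13.8 to 260 TPM, and 4 of them are crosses.

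For 10 genes the TPM table held values and the count table held none. Hist2h2aa1, Hist2h2aa2, Hist2h2bb, Hist2h3b, Hist2h3c1, Hist1h2bq, Hist1h2br, Hist1h2ao, Hist1h2ap and Hist1h2aa had 0 counted reads in all 47 libraries while all 10 had a mean TPM above 0. The 5 Hist2 genes each shared every 50-base window of their transcripts with an annotated gene that overlaps them at their own locus. These were Gm20633 for Hist2h2aa1, Gm20632 for Hist2h2aa2, Gm20628 for Hist2h2bb and Hist2h3b, and Gm20634 for Hist2h3c1. Hist1h2bq, Hist1h2br, Hist1h2ao and Hist1h2ap shared 88.7% to 97.3% of their windows. The first 2 shared them chiefly with one another, as did the last 2. Hist1h2aa shared only 23.8%, and 80 of these 81 windows were with Gm44344, which overlaps it on the opposite strand. Whether the reads of the 10 genes were left out of the counts as mapping to several places or as ambiguous between overlapping genes was not tested. Hist2h2aa1 and Hist2h2aa2 encode H2A from neighbouring copies on chromosome 3, and their summed TPM ran from 97.6 to 499 with a median of 287. Hist2h2aa2 took the larger share in all libraries but 1: in Kir P10 replicate 2, Hist2h2aa2 was listed at 0 and Hist2h2aa1 at 326 TPM. The split within the pair is therefore uncertain, also in the ranking above, and its sum is compared here. By age the sum was 194 ± 36.0 TPM (SD, n = 4) in WT at P0, 206 ± 62.4 TPM (n = 3) at P3, 269 ± 104 TPM (n = 3) at P14 and 284 ± 47.005 TPM (n = 3) at P21, all in cry4 libraries. In the cry6 libraries of WT it was 402 ± 43.6 TPM (n = 3) at P5 and 465 ± 39.2 TPM (n = 3) at P10. The 2 kinds of library cannot be told apart from age here. At P7, where both are present, the sum stood at 253 and 314 TPM in the cry4 libraries, 287 and 354 TPM in the cry3 libraries and 247 to 464 TPM in the cry6 libraries. The split between Hist1h2bq and Hist1h2br is uncertain too. Their summed mean in WT was 9.85 to 16.9 TPM at the cry4 ages P0, P3, P14 and P21, and 88.1 and 89.1 TPM at P5 and P10. At P7 it stood at 21.6 and 24.5 TPM in cry4, 74.4 and 76.8 TPM in cry3 and 41.9 to 111 TPM in cry6 libraries. Both ranks above thus depend on the mix of libraries.

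Levels are given here by annotated end, as a description with no test. Among the 44 genes with a stem-loop, the 22 whose annotation runs 100 or more bases past it had a median mean level of 2.35 TPM and held 11 poly(A) signals (AATAAA or ATTAAA in the last 50 bases). The 22 whose annotation stops short of that had a median of 0.818 TPM and held 2 poly(A) signals. The ranges were 0.111 to 140 TPM and 0.260 to 260 TPM, so the groups overlapped, and the highest gene of all was in the second. The 11 genes annotated with coding sequence alone had a median of 1.39 TPM, and the 13 with untranslated sequence but no stem-loop found 1.77 TPM. Of the 4 genes with the most unique reads, Hist1h1c is annotated to run 840 bases past its stem-loop, Hist3h2a 1643 and Hist3h2ba 169 bases. No stem-loop was found in the annotated transcript of Hist1h2bc. The 4 together held 71.2% of all unique reads of the clustered genes.

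Changes were tested on the unique counts with edgeR's quasi-likelihood F test in one fit of all 47 libraries, with Benjamini-Hochberg adjustment over the 19927 genes that passed a filter on low counts, and calls were made below an adjusted p of 0.05. Of the 68 clustered genes, 25 passed the filter: 3 of 6 H1, 6 of 20 H2A, 6 of 17 H2B, 2 of 12 H3 and 8 of 13 H4 genes. Of the other 43, the 10 genes at 0 counted reads named above could not be tested, the highest by TPM among them. The remaining 33 had 12 to 247 reads over all libraries together, with a median of 73, and were not tested in the main fit. Only the alternative fit with no filter on low counts tested all of them. In this bulk tissue, fewer cells that express a gene and less RNA per cell cannot be told apart.

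In WT, 9 of the 25 tested genes differed between P21 and P0, against 50.8% of all genes tested. Hist2h3c2 (H3), Hist2h4 (H4), Hist1h4k (H4), Hist1h2ac (H2A), Hist2h2ac (H2A) and Hist1h2be (H2B) rose, and Hist1h1c (H1), Hist1h4h (H4) and Hist1h4i (H4) fell. The 6 that rose compare with 24% of all genes and the 3 that fell with 26.8%. Of the log2 fold changes of all 25, 12 were above 0 and 11 below, with a median of 0.00 beside -0.05 over all genes tested. Hist1h2ba and Hist1h2al, which are among the 25, had no reads in these WT groups and could not be called here. The median of 0.00 is their value and no measured change. Both directions occurred among the H4 genes, and the share called, 9 of 25, was below that of all genes tested. Markers of cell types moved over the same WT libraries. The summed CPM of 12 markers of mature olfactory sensory neurons was 1844 to 2482 at P0 and 9665 to 10898 at P21, and that of 10 markers of sustentacular cells, the supporting cells, was 3957 to 5949 and 15181 to 21240. The sum of 10 cartilage markers was 154 to 9020 at P0 and 43.4 to 57.3 at P21. No marker of these 3 lists was at 0 reads in these WT groups. Their part in the changes of the histone genes was not tested.

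The linker histone Hist1h1c fell most. It lies at chr13:23738808-23740367 (plus strand). Its levels in WT at P0 were 61.6, 116, 142 and 171 CPM, and at P21 they were 48.4, 49.2 and 62.4 CPM. The lowest P0 library lay just under the highest P21 library, and the others were well above. The log2 fold change from P0 to P21 was -1.20 (SE 0.23, edgeR adjusted p = 5.6e-05), and Hist1h1c remained called under all 12 other settings and with each library of these groups left out. In Kir it fell by 0.76 on the log2 scale (SE 0.23, edgeR adjusted p = 0.00628), from 48.3 to 122 CPM at P0 to 49.3 to 63.3 CPM at P21. RNAs that lack a poly(A) tail or come from rRNA, a list of 24, summed to 970 to 1301 CPM in WT at P0 and 775 to 1344 CPM at P21. Highest of the list by mean over the 47 libraries were mt-Rnr2 (432 CPM), Lars2 (189 CPM), mt-Rnr1 (170 CPM) and Gm26917 (95.2 CPM). The next, Rn7sk, stood at 1.76 CPM, so the sum mostly reflects the first ones and not the small RNAs. A covariate was made from the mean log2 level of the 10 listed RNAs that passed the filter. With it Hist1h1c was still called.

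The other H1 genes were not called in WT. Hist1h1e stood at 3.43 to 5.30 CPM in WT at P0 and 2.51 to 4.04 CPM at P21 (log2 fold change -0.43, SE 0.24, edgeR adjusted p = 0.131). Hist1h1d stood at 2.45 to 5.47 CPM and 2.66 to 3.57 CPM (log2 fold change -0.10, SE 0.29, edgeR adjusted p = 0.803). Hist1h1a, Hist1h1b and Hist1h1t, the testis form, did not pass the filter, with 93, 142 and 50 reads over all 47 libraries. Hist1h1e and Hist1h2be overlap on the same strand, so a read in the shared stretch cannot be given to either.

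Among H2A genes, Hist1h2ac and Hist2h2ac rose and Hist3h2a was not called in WT. Hist1h2ac stood at 5.63, 5.90, 6.26 and 6.26 CPM in WT at P0 and at 9.06, 10.6 and 13.4 CPM at P21, with every P21 library above every P0 library. Its log2 fold change was 0.88 (SE 0.23, edgeR adjusted p = 0.00205), and the call held under all 12 settings and with each library left out. At P14 the WT libraries stood at 5.35 to 5.95 CPM. Hist2h2ac went from 0.313, 0.782, 0.897 and 1.32 CPM to 1.47, 1.54 and 1.64 CPM (log2 fold change 0.88, SE 0.30, edgeR adjusted p = 0.0146). Without WT P0 replicate 3 its adjusted p was 0.078. Hist3h2a, which overlaps Trim17 on the same strand, stood at 12.3 to 20.9 CPM at P0 and 17.6 to 21.8 CPM at P21 (log2 fold change 0.33, SE 0.21, edgeR adjusted p = 0.19). Hist2h2ab stood at 0.163 to 0.616 CPM and 0.289 to 0.839 CPM (log2 fold change 0.89, SE 0.55, edgeR adjusted p = 0.175).

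Of the H2B genes only Hist1h2be was called in WT. Its 4 P0 libraries stood at 6.89, 7.34, 7.39 and 8.01 CPM and its 3 P21 libraries at 10.2, 10.7 and 11.4 CPM, without overlap. The log2 fold change was 0.54 (SE 0.22, edgeR adjusted p = 0.0376), and the call was lost when any of 5 of the 7 libraries was left out (WT P0 replicates 1, 3 and 4, and WT P21 replicates 1 and 3), with adjusted p up to 0.0934. Hist3h2ba, the H2B gene of highest mean TPM among the 68, was not called: it stood at 22.3 to 39.1 CPM at P0 and 28.3 to 32.7 CPM at P21 (log2 fold change -0.03, SE 0.21, edgeR adjusted p = 0.916). Hist1h2bc was not called either, at 29.6 to 35.4 CPM and 27.7 to 33.6 CPM (log2 fold change -0.04, SE 0.19, edgeR adjusted p = 0.877). Hist1h2bc shares a promoter of 250 bases with Hist1h2ac on the opposite strand, whose log2 fold change over the same libraries was 0.88. The difference between the 2 partners was not tested.

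Hist2h3c2, an H3 gene, had the highest rise of the 25. It lies at chr3:96238108-96239127 (minus strand). In WT it stood at 3.18, 3.61, 3.86 and 6.60 CPM at P0 and at 11.7, 13.3 and 18.2 CPM at P21, and every P21 library lay above every P0 library. The log2 fold change was 1.74 (SE 0.29, edgeR adjusted p = 5.11e-06), held under all 12 settings and with each library left out. At the ages between, the WT means were 7.62 CPM at P3, 10.1 CPM at P5, 9.85 CPM at P7, 12.4 CPM at P10 and 12.1 CPM at P14. Of its annotated 50-base windows, 63.5% also occur in another gene, chiefly Gm20634, so that the unique counts cover only part of the transcript. Hist1h3d, the other H3 gene tested, had a log2 fold change of -0.21 (SE 0.39, edgeR adjusted p = 0.674).

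H4 genes moved in both directions. Hist2h4 rose from 7.94, 8.10, 10.8 and 14.1 CPM in WT at P0 to 16.4, 20.9 and 21.1 CPM at P21 (log2 fold change 0.92, SE 0.19, edgeR adjusted p = 0.000146), and held under every setting and left-out library. Hist1h4k rose from 0.348, 0.571, 0.616 and 0.626 CPM to 1.16, 1.89 and 2.29 CPM (log2 fold change 1.72, SE 0.47, edgeR adjusted p = 0.0026). Both sets of groups were apart. The Hist1h4k values rest on 4 to 7 reads per P0 library and 12 to 27 per P21 library. Of its 50-base windows, 71.5% also occur in another gene. Its call was lost in 1 of the 12 other settings and with no single library left out. Hist1h4h fell from 1.71, 1.74, 2.82 and 3.35 CPM to 0.642, 0.839 and 1.73 CPM (log2 fold change -1.17, SE 0.43, edgeR adjusted p = 0.0233), with the highest P21 library inside the P0 range. The call was lost without WT P21 replicate 2 (adjusted p = 0.133), WT P21 replicate 3, WT P0 replicate 2 or WT P0 replicate 3. Hist1h4i had a log2 fold change of -0.59 (SE 0.25, edgeR adjusted p = 0.0474), a call lost in 6 of the 7 fits with a library left out. Hist4h4 was not called, at 1.56 to 1.67 CPM and 1.54 to 1.68 CPM (log2 fold change -0.01, SE 0.29, edgeR adjusted p = 0.974). Over the 9 calls together, 5 were left without WT P0 replicate 3, and 5 also when that library was placed in P3. Placing it in P3 took the calls over all 19927 genes in this comparison from 10118 to 9054.

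**Figure D2:**
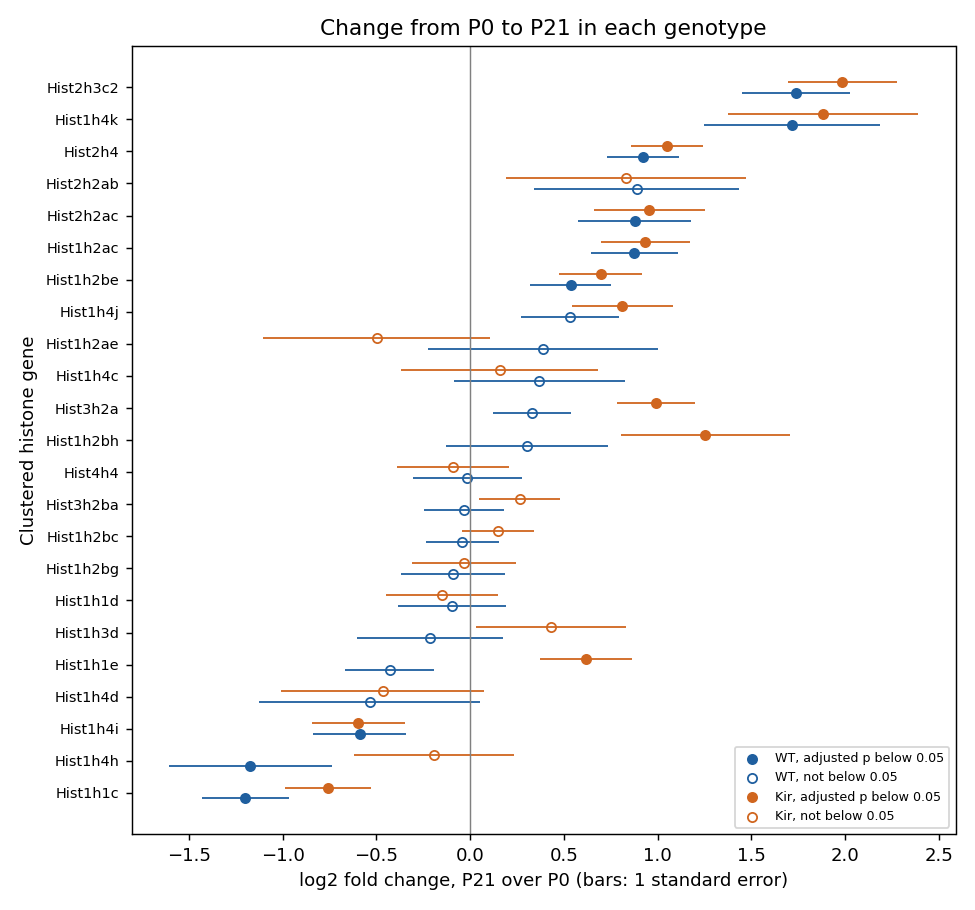
Log2 fold change from P0 to P21 with 1 standard error for 23 tested clustered histone genes, in WT (blue) and Kir (orange), with filled points for an adjusted p below 0.05. Hist2h3c2 lies highest in both genotypes (1.74 and 1.99) and Hist1h1c lowest (-1.20 and -0.76); Hist1h2ba and Hist1h2al, with no reads in these groups, are not drawn.

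In Kir, 12 of the 25 genes differed between P21 and P0, against 48.9% of all genes tested, 10 higher (22.9% of all genes) and 2 lower (25.9%). Hist2h3c2 (log2 fold change 1.99, SE 0.29, edgeR adjusted p = 9.36e-07), Hist2h4 (1.05, SE 0.19, 2.86e-05), Hist1h2ac (0.94, SE 0.24, 0.00145), Hist1h4k (1.88, SE 0.51, 0.00238), Hist2h2ac (0.96, SE 0.30, 0.00757) and Hist1h2be (0.70, SE 0.22, 0.009) rose as in WT. Hist3h2a rose too, from 8.59, 8.78, 13.2 and 16.2 CPM to 20.2, 24.4 and 25.04 CPM (log2 fold change 0.99, SE 0.21, edgeR adjusted p = 0.000171). Hist1h4j, Hist1h2bh and Hist1h1e rose by 0.81, 1.25 and 0.62 on the log2 scale, and Hist1h4i fell by 0.60.

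The Kir count rests on few libraries. Without Kir P21 replicate 2 it was 7, and without the 5 libraries of low Kcnj2 it was 2, Hist2h3c2 (log2 fold change 1.06, edgeR adjusted p = 0.0401) and Hist2h4 (1.15, edgeR adjusted p = 0.00326). That last fit leaves Kir P21 with replicate 3 alone, whose spread is taken from the other groups. The 3 Kir P21 libraries were unlike: Kcnj2 stood at 209, 238 and 1050 CPM in replicates 1, 2 and 3, Hist1h2ac at 11.3, 8.70 and 4.55 CPM, and Hist2h3c2 at 16.5, 14.4 and 6.37 CPM. The 2 libraries of low Kcnj2 were thus the 2 in which both genes were high, and the part of this in the result was not tested. Summed over all 68 genes, these libraries stood at 251, 223 and 178 CPM. The list of 24 RNAs that lack a poly(A) tail or come from rRNA stood at 1191, 1304 and 745 CPM.

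The change from P0 to P21 was not found to differ between the genotypes for any clustered histone gene. The interaction term called 0 of 25 with edgeR (0.286% of all genes) and 0 with DESeq2. An unadjusted edgeR p under 0.05 was found for 2 of the 25 and for 1448 of the 19927 genes tested. The change of Hist1h1e was 1.05 higher in Kir on the log2 scale (SE 0.34, edgeR adjusted p = 0.351). That of Hist3h2a was 0.66 higher (SE 0.30, edgeR adjusted p = 0.622).

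**Figure D3:**
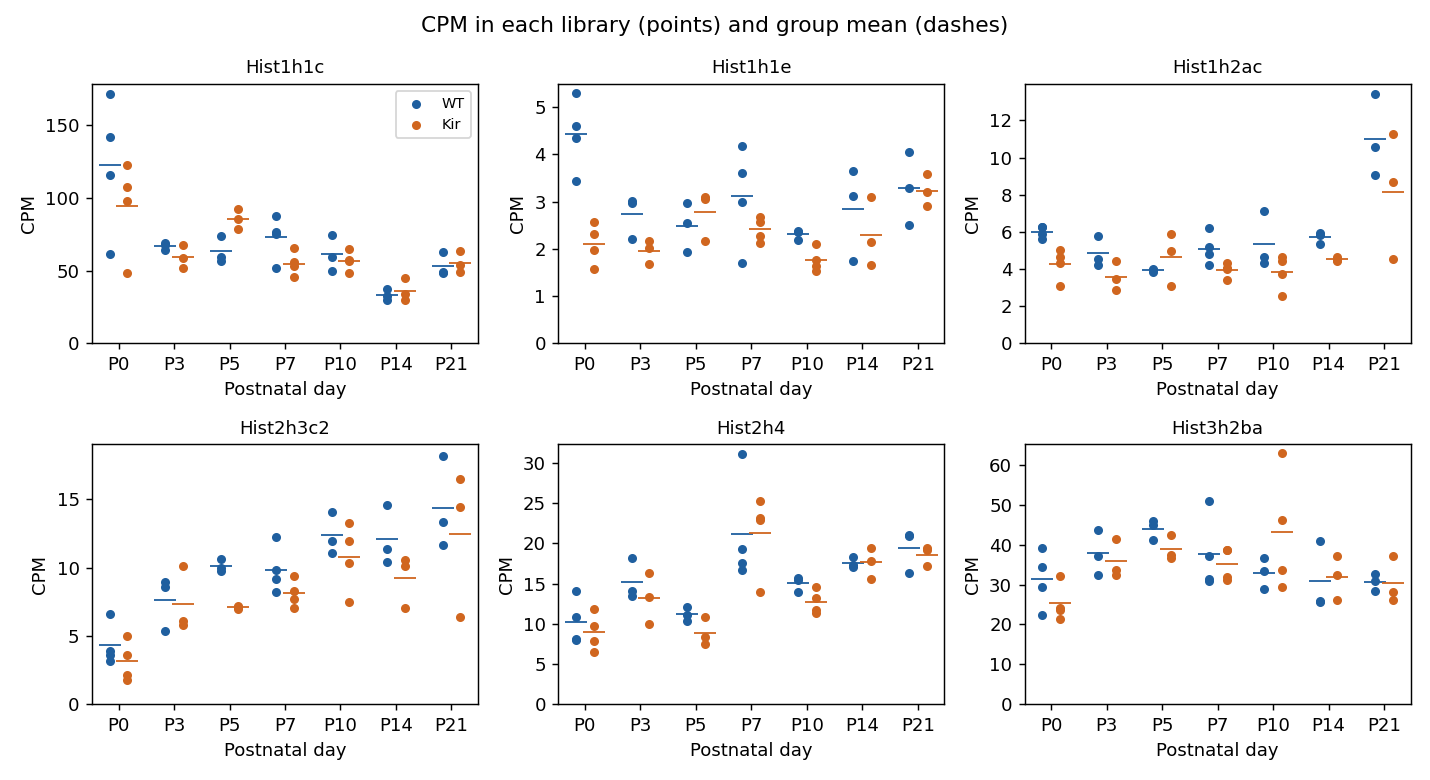
CPM of 6 clustered histone genes in each library (points) by postnatal day, with group means as dashes, WT blue and Kir orange. Hist1h1c is highest at P0 and lowest at P14, Hist2h3c2 climbs from P0, and the 3 WT libraries of Hist1h2ac at P21 (9.06 to 13.4 CPM) lie above its P0 libraries.

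Neighbouring ages of one prefix were compared in WT. From P0 to P3, 6 of the 25 genes were called, against 20.5% of all genes tested: 3 rose (8.61% of all genes) and 3 fell (11.9%). Hist2h4 (log2 fold change 0.57, SE 0.19, edgeR adjusted p = 0.0341) and Hist2h3c2 (0.82, SE 0.29, 0.042) rose. Hist1h1c (-0.87, SE 0.23, 0.00633), Hist1h4h (-1.70, SE 0.45, 0.00679) and Hist1h1e (-0.69, SE 0.24, 0.0381) fell. The sixth, the pseudogene Hist1h2al, is described below. With WT P0 replicate 3 placed in P3, the stage its own label gives, Hist1h2al alone was called in this step. Calls over all 19927 genes then went from 4077 to 919. Hist1h1c remained called with each library of these groups left out. Hist1h1e was lost when any 1 of WT P0 replicates 1 and 3 and WT P3 replicates 1, 2 and 3 was left out (adjusted p up to 0.211). Hist2h3c2 was lost when any 1 of WT P0 replicates 1, 2 and 3 and WT P3 replicates 1 and 3 was left out (up to 0.151), and Hist2h4 without WT P0 replicate 2 or 3 or WT P3 replicate 1 (up to 0.213). Hist1h4h was lost without WT P3 replicate 1 (0.0638). With the replicate block the edgeR adjusted p was 0.0557 for Hist1h1e and 0.0594 for Hist2h3c2. Over the 12 other settings the call was lost in 8 for Hist1h1e and in 5 for Hist2h4. It was lost in 3 each for Hist2h3c2 and Hist1h4h and in 1 for Hist1h1c. From P3 to P14, 3 were called (22.6% of all genes): Hist1h1c fell again, from 64.4, 67.3 and 69.1 CPM to 29.6, 32.6 and 37.5 CPM (log2 fold change -1.01, SE 0.25, edgeR adjusted p = 0.00286). Hist2h2ac rose from 1.25 to 1.32 CPM to 1.92 to 2.93 CPM (0.93, SE 0.30, edgeR adjusted p = 0.0228), and Hist1h2al was the third. The Hist2h2ac call was lost when any 1 of 5 of the 6 libraries was left out, all but WT P14 replicate 3 (edgeR adjusted p up to 0.122). It was also lost in 4 of the 12 other settings. With WT P0 replicate 3 placed in P3, this step held 4 calls, Hist2h3c2 being added. Calls over all 19927 genes went from 4501 to 6423. Over the 4 steps together 9 calls were made, those of Hist1h2al included, and 4 without WT P3 replicate 1.

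From P14 to P21 edgeR and DESeq2 called 0 of 25, where edgeR called 0.0452% of all genes. Of the 25, 6 had an unadjusted edgeR p under 0.05, against 872 of the 19927 genes tested. From P5 to P10, both in cry6 libraries, both tools called 0 as well, where edgeR called 1.93% of all genes. There 2 of the 25 had an unadjusted edgeR p under 0.05, against 2385 of the 19927. For Hist1h2ac from P14 to P21 the log2 fold change was 0.95 (SE 0.25, edgeR adjusted p = 0.319), and for Hist1h1c it was 0.68 (SE 0.25, edgeR adjusted p = 0.757).

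The genes of DNA replication and cell division, given here for comparison, moved together across the same libraries. Of 38 genes of S phase and DNA replication, all of which passed the filter, 34 rose and 0 fell in WT from P0 to P3 by edgeR, with a median log2 change of 0.79. From P3 to P14 all 38 fell (median -1.11), and 28 were lower at P21 than at P0 (median -0.65). Of 25 mitosis genes 24 rose from P0 to P3, all 25 fell from P3 to P14, and all 25 were lower at P21 than at P0 (median -1.20). Of all genes tested, 8.61% rose from P0 to P3 and 26.8% were lower at P21 than at P0. From P3 to P14, 22.6% of them were called. Over the same 3 comparisons the medians of the 25 tested clustered histone genes were -0.02, -0.03 and 0.00. The last is the value of Hist1h2ba and Hist1h2al, which had no reads in WT at P0 and P21. Summed CPM of the S phase genes in WT was 930 to 1244 at P0, 1689 to 2023 at P3 and 664 to 704 at P21. Summed CPM of all 68 clustered histone genes was 190 to 320 at P0, 207 to 218 at P3, 154 to 191 at P14 and 203 to 239 at P21. The P14 libraries lay below all P3 and P21 libraries, and the P0, P3 and P21 ranges overlapped. Hist1h1c alone stood at 29.6 to 37.5 CPM at P14 and at 64.4 to 69.1 CPM at P3.

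**Figure D4:**
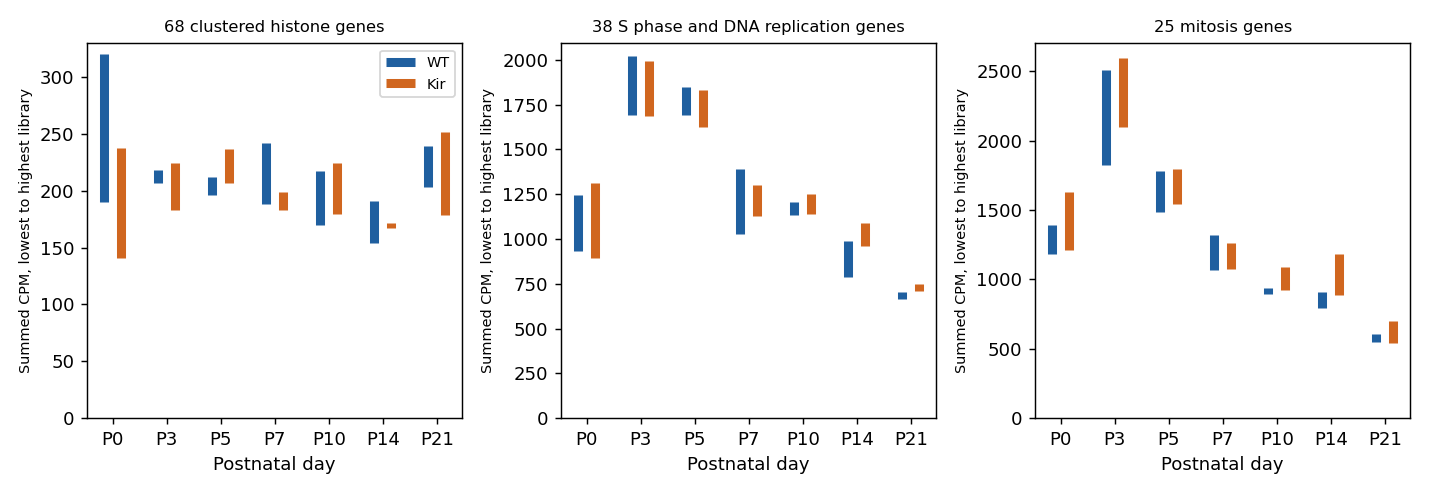
Summed CPM from the lowest to the highest library of each group by postnatal day, for the 68 clustered histone genes, 38 S phase genes and 25 mitosis genes, WT blue and Kir orange. The S phase sum in WT goes from 930 to 1244 at P0 to 1689 to 2023 at P3 and 664 to 704 at P21, while the histone sum at P3 (207 to 218) lies inside its P0 range (190 to 320).

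Single replication genes show the size of that movement. E2f8, a cell cycle transcription factor, fell by 1.82 on the log2 scale from P0 to P21 in WT (SE 0.22, edgeR adjusted p = 1.78e-08), Gins2 of the replicative helicase by 1.58 and Tk1, thymidine kinase, by 1.22. Mcm3, a subunit of the same helicase, fell by 1.13, and Rrm1, of ribonucleotide reductase, by 0.78. The mitotic genes Cdc20, Birc5, Aurkb, Tpx2 and Plk1 fell by 1.69, 1.57, 1.53, 1.47 and 1.45.

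Factors that make and handle histones moved in both directions in WT. Of all genes tested, 24% were higher at P21 than at P0 and 26.8% were lower. Of 17 genes of histone mRNA transcription and 3′ processing, 3 were higher at P21 than at P0 in WT and 1 was lower. Zfp473, a zinc finger protein of the U7 processing complex, rose by 0.73 (SE 0.20, edgeR adjusted p = 0.00261), Cstf2 by 0.29 and Ncbp2, of the nuclear cap-binding complex, by 0.29, while Cpsf3, the endonuclease that cuts histone pre-mRNA, fell by 0.48. Slbp itself rose from P0 to P3 (log2 fold change 0.40, SE 0.08, edgeR adjusted p = 0.00104) and fell from P3 to P14 (-0.35, SE 0.09, edgeR adjusted p = 0.00453). Of 19 histone chaperone genes 9 fell and 2 rose from P0 to P21. Chaf1b, a subunit of the chromatin assembly factor CAF-1, fell by 1.5, Asf1b by 0.89, Rbbp7 by 0.75 and Ssrp1 by 0.45, and Hjurp rose by 0.55. Of 11 histone genes outside the clusters, 6 fell and 1 rose: Cenpa, the centromeric H3, fell by 1.30, H2afx by 0.83, H1f0 by 0.66 and H2afv by 0.60, and H2afy, which encodes macroH2A, rose by 0.51.

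Averaged over the 7 ages, 2 of the 25 clustered histone genes were lower in Kir than in WT and 0 were higher. Of all genes tested 10.5% were called and 7.43% were lower. Hist1h1e was lower by a log2 fold change of -0.36 (SE 0.09, edgeR adjusted p = 0.00709), with the Kir mean below the WT mean at 6 of 7 ages. Hist1h2ac was lower by -0.33 (SE 0.09, edgeR adjusted p = 0.0159), also at 6 of 7 ages. Both calls held under all 12 settings and with each of the 47 libraries left out in turn, with adjusted p from 0.00191 to 0.0421 for Hist1h1e and from 0.00122 to 0.0473 for Hist1h2ac. For Hist2h3c2 the log2 fold change was -0.30 (SE 0.11, edgeR adjusted p = 0.0742) and for Hist1h2be -0.23 (SE 0.08, edgeR adjusted p = 0.0775). The 12 markers of mature olfactory sensory neurons were also lower in Kir at 4 of the ages. Their summed CPM was 1874 to 2813 in Kir and 3546 to 4131 in WT at P3, 3551 to 3903 and 4754 to 5455 at P5, 6431 to 7483 and 9052 to 9363 at P14, and 8346 to 8834 and 9665 to 10898 at P21, without overlap. At P0, P7 and P10 the ranges overlapped. No marker of the list was at 0 reads in any group, and the part of this in the histone differences was not tested.

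That count grew when libraries were left out. Without the 5 Kir libraries of low Kcnj2 it was 5, all lower in Kir: Hist1h2ac (-0.48), Hist2h3c2 (-0.48), Hist1h1e (-0.41), Hist1h4j (-0.35) and Hist1h2be (-0.33). Without Kir P0 replicate 1 it was 4, with Hist1h2be (-0.27) and Hist2h3c2 (-0.34) added to the first 2. Hist1h1e and Hist1h2be share sequence, as stated above. The same average moved few genes of the comparison lists: 2 mitosis genes were higher in Kir, Ndc80 (0.20, SE 0.06, edgeR adjusted p = 0.0246) and Nusap1 (0.19, SE 0.06, edgeR adjusted p = 0.0477), both of the mitotic spindle, and 0 of the 38 S phase genes were called by edgeR.

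Within single ages the one call between genotypes was Hist1h1e at P0 (1.09% of all genes tested were called at that age). WT stood at 3.43, 4.34, 4.59 and 5.30 CPM and Kir at 1.58, 1.97, 2.30 and 2.56 CPM, and the groups did not overlap. The log2 fold change was -1.07 (SE 0.23, edgeR adjusted p = 0.0202). The call was lost without WT P0 replicate 1 (edgeR adjusted p = 0.108) and without Kir P0 replicate 4 (0.0721). It was also lost with the covariate of RNAs that lack a poly(A) tail or come from rRNA (0.0861). The overlapping Hist1h2be stood at 6.89 to 8.01 CPM in WT and 3.72 to 8.40 CPM in Kir. It was called too without Kir P0 replicate 1 (log2 fold change -0.83, edgeR adjusted p = 0.0288). Without Kir P10 replicate 4, Hist1h4k was called at P10 (1.60, edgeR adjusted p = 0.00796). Its reads there were 36, 33, 17 and 7 in Kir replicates 1 to 4 and 9 to 16 in WT. Kir P10 replicates 1 and 2 had 17.7% and 33.5% of reads unmapped, the highest shares of all libraries. The part of this in the call was not tested. At the other 6 ages edgeR and DESeq2 called 0 of 25 each, where edgeR called 0.703% of all genes at P3, 0.105% at P5, 0.0903% at P7, 3.13% at P10, 1.17% at P14 and 0.743% at P21. Unadjusted edgeR p was under 0.05 for 1, 3, 2, 2, 0 and 1 of the 25 at these ages. Of the 19927 genes tested it was so for 2704, 1127, 828, 2046, 1648 and 1678. Whether the difference between genotypes changed with age was tested over all 7 ages at once. There edgeR called 0 of 25 (0.381% of all genes) and DESeq2 called 0. Hist1h1d and Hist1h1e had an unadjusted edgeR p under 0.05 (edgeR adjusted p = 0.61 and 0.691). That limit was met by 1200 of the 19927 genes tested.

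Among the 25 tested genes, Hist1h2al and Hist1h2ba had their reads concentrated in a few libraries. Hist1h2al, annotated as a processed pseudogene of H2A at chr13:51202727-51203065, lies outside the Hist1 cluster. It had 42 and 40 reads in WT P3 replicates 1 and 2 (4.03 and 3.53 CPM) and 0 in replicate 3, and 110 and 27 reads in WT P7 replicates 3 and 4. No other library had more than 4. All 4 WT P0 libraries were at 0. The gene passed the filter on low counts through the few WT libraries where it is high, so its calls from P0 to P3 and from P3 to P14 describe those libraries and support nothing. Without it, 5 calls remain of the 6 from P0 to P3 and 2 of the 3 from P3 to P14. The 4 libraries with the reads were 2 cry4, 1 cry6 and 1 cry3, all WT. The Kir libraries held at most 3 reads each. Kir against WT at P3 was not called for it in the main fit. Without WT P3 replicate 3, WT P7 replicate 2 or WT P7 replicate 3 it was. Those calls rest on the same few libraries and support nothing either. Of the 50-base windows of Hist1h2al, 67.6% occur in another gene.

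Hist1h2ba, which encodes the testis-specific H2B, was read in cry6 libraries alone. There, 11 of 17 libraries held 20 to 49 reads each and the other 6 held 0, as did all 28 cry4 and both cry3 libraries. The reads came in P5, P7 and P10 libraries of both genotypes, 6 WT and 5 Kir. At P7 it stood at 1.12 CPM in WT replicate 3 and at 1.05 and 0.851 CPM in Kir replicates 2 and 3, and at 0 in the other 5 libraries. A list of 9 male germ cell genes, which itself holds Hist1h2ba and Hist1h1t, summed to at most 2.34 CPM in any library. Of its other members, Prm1, Acrv1 and Odf1 had 69, 51 and 20 reads over all 47 libraries, and Prm2 and Tnp1 had 1 each. Their part in the reads of Hist1h2ba was not tested. Hist1h2ba is annotated with coding sequence alone, in which no stem-loop was found.

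**Figure D5:**
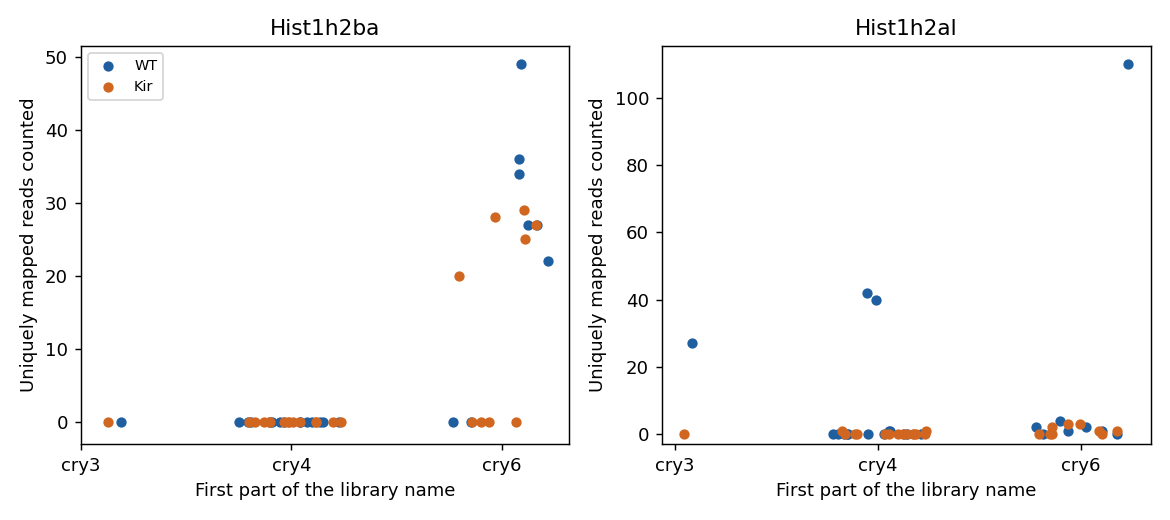
Uniquely mapped reads of Hist1h2ba and Hist1h2al in each of 47 libraries, by the first part of the library name, WT blue and Kir orange, with points spread sideways for visibility. Hist1h2ba has 20 to 49 reads in 11 cry6 libraries and 0 elsewhere, and Hist1h2al exceeds 4 reads in 4 WT libraries.

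Some of the clustered genes lie in pairs that face away from one another across a short promoter. Of the 68, 25 stood in 13 such pairs with under 500 bases between starts, all of an H2A with an H2B gene, counting Hist2h2be as the partner of Hist2h2ac. In 3 pairs both partners passed the filter. Hist1h2ae and Hist1h2bg, 175 bases apart, had log2 fold changes of 0.39 and -0.09 in WT from P0 to P21 (edgeR adjusted p = 0.622 and 0.868). Hist1h2ac and Hist1h2bc had 0.88 and -0.04. Hist2h2ac and Hist2h2be, 238 bases apart, had 0.88 and 1.96, and in Kir 0.96 and 2.06. Hist2h2be is an H2B gene expressed in olfactory neurons: it went from 217 ± 37.4 CPM (SD, n = 4) in WT at P0 to 844 ± 89.2 CPM (n = 3) at P21, while Hist2h2ac across the same promoter stayed under 3 CPM in every library. Averaged over ages Hist2h2be was lower in Kir (log2 fold change -0.20, SE 0.06, edgeR adjusted p = 0.0127) and Hist2h2ac was not called (-0.05, SE 0.11, edgeR adjusted p = 0.875).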

How the data were processed

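RNA of 47 olfactory epithelium libraries in 14 groups was measured by RNA-seq of polyadenylated RNA, per the labels' protocols. The authors deposited read counts per gene, made with STAR 2.6.1c on mm10, and TPM from RSEM. The tools and bcl2fastq 2.18 are named per the submitters' processing notes. The sources used here give neither the annotation nor the strand setting of the counting, so a gene and an overlapping antisense gene cannot be told apart. The deposited counts leave out reads that map to several places or are ambiguous between genes, which stand on lines of their own. The table has 4 lines that name no gene (unmapped, multiply mapped, featureless and ambiguous reads), which entered neither library sizes nor tests. Unmapped reads were 33.5% of 1 library and at most 20% of the others.

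Counts were tested with edgeR 4.0.16 in R 4.3.3: TMM scaling, a filter on low counts by group, one fit of 47 libraries with group means and the library name prefix as terms, the quasi-likelihood F test and Benjamini-Hochberg adjustment over 19927 genes. Standard errors are the log2 fold change over the square root of F. CPM use TMM library sizes. The code was tested on simulated data. Alternatives used DESeq2 1.42.0, limma 3.58.1 on log2(TPM + 1) and log2(TPM + 0.1), other scalings, filters and covariates, WT P0 replicate 3 placed in P3, a replicate block, and each library left out. The fit without 5 Kir libraries under 300 CPM of Kcnj2 was chosen after seeing the data. The members and gene lists were chosen with earlier results of these data known. The genes named were the 10 highest by TPM, up to 10 called genes of smallest p in the age and the averaged genotype comparison, up to 5 in each other comparison and list, and all H1, Hist2, Hist3 and Hist4 genes. Hist1h2ba, Hist1h4j, Hist1h2bh, Hist1h3d, Hist1h2ae, Hist1h2bg and further genes called in Kir were named after their values were seen. The replicate numbers come from the titles for cry4 libraries. For cry6 and cry3 libraries they were given by order of deposition. The title of each cry6 library ends in a longer number of its own, whose meaning the sources used here do not give. By the rule that every pair of 3 or more correlates over 0.1, the cry4 replicate numbers pair Kir and WT at P3 (0.17 to 0.29). They do so in no other comparison checked. The block changed no call on a clustered histone gene between the genotypes at P3. Replicates differed by more than sampling noise in all 57 pairs within a group. Intervals of counting error are not given, since the labels name no molecular identifiers.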

Additional observations from a re-analysis of the deposited data

Results flagged for a closer look

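In groups of 4 libraries, 5 of 93 checked values had a library set apart from the rest of its group by a wide gap. Chance gives about 1 in 20 groups. Hist1h1d stood at 5.475 CPM in WT P0 replicate 4, where the other 3 libraries stood at 2.447 to 2.906 CPM. Hist1h4i stood at 2.61 CPM in WT P0 replicate 1, below the other 3 at 4.177 to 4.258 CPM, and at 4.406 CPM in Kir P7 replicate 2, above the other 3 at 3.132 to 3.17 CPM. Hist2h2ac stood at 2.182 CPM in WT P7 replicate 4, the cry3 library of that group, and at 1.12 to 1.228 CPM in the others. Hist1h2al stood at 0.1023 CPM in Kir P7 replicate 1, which is 1 read, and at 0 in the other 3.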

How the results depend on the processing

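No change of a clustered histone gene called in the main fit reversed its direction under any alternative run. Changes not called there were not checked for this. Of the counts of called clustered histone genes, WT P21 against P0 (9) was 5 with WT P0 replicate 3 placed in P3, and 5 to 8 with 1 library left out (5 without WT P0 replicate 3). Kir P21 against P0 (12) was 2 without the Kir libraries of low Kcnj2 and 7 to 11 with 1 library left out (7 without Kir P21 replicate 2). The genotype average (2) was 5 without the low-Kcnj2 libraries and 2 to 4 with 1 left out (4 without Kir P0 replicate 1). Calls within ages (1) were 3 with no filter on low counts. They were 0 with the covariate of RNAs that lack a poly(A) tail or come from rRNA. With 1 library left out they were 0 to 2, with calls of Hist1h2al among those added. Calls over the WT steps (9, those of Hist1h2al included) were 5 with WT P0 replicate 3 placed in P3. With 1 left out they were 4 to 9 (4 without WT P3 replicate 1). The interaction and the change of the genotype difference with age had 0 calls throughout. The comparison lists had 2 calls for the genotype average: 1 with upper-quartile factors, no prefix term, WT P0 replicate 3 in P3 or the poly(A) covariate, 0 with no filter or without the low-Kcnj2 libraries, and 0 to 6 with 1 left out, where 23 of 47 libraries moved it by over 1.5 times. Their WT P21 against P0 count (76) ran from 69 to 79 with 1 left out. Of the 10 genes highest by TPM, 6 were among the 10 highest by CPM. The causes were not tested, except that fewer libraries enter where some are left out.

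Same-numbered libraries were compared in 13 pairs between genotypes and 6 between P0 and P21. At P3 the correlation of their deviations was over 0.1 in all 3 pairs (0.17 to 0.29). In the other comparisons it ran from -0.19 to 0.30, and not every pair was over 0.1. With the replicate block, WT P21 against P0 gave 7 calls, Kir 11, the genotype average 2, ages 1, the steps 7, the interaction 0, and the lists' genotype average 4.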
